A study of Mus musculus with 16 samples.

Results

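Lipolysis, the release of fatty acids from stored fat, was followed through 6 genes: Pnpla2, Lipe and Mgll, which encode its 3 enzymes, and Abhd5, G0s2 and Adrb3, which control them. They were taken by symbol from a deposited table of RNA levels for 14023 genes in mouse white fat, and all 6 were found. The unit is FPKM, the number of fragments scaled to the length of the transcript and to all fragments mapped. Each of the 6 was at 1 FPKM or more in 16 of 16 libraries, so all of them passed the filter on low values and were tested. The tissues were epididymal fat (eWAT), a depot of the abdomen, and inguinal fat (iWAT), a depot under the skin. The K107R mice carried on both alleles a PPARg, the nuclear receptor of fat cell differentiation, whose attachment site for the small protein SUMO, the lysine K107, is changed to arginine. The WT mice carried the unaltered receptor. All mice, controls included, ate chow to the age of 10 weeks and then a diet with 60% of its calories as fat for another 19 weeks. They were gavaged for 1 week with rosiglitazone, a synthetic agonist of PPARg, at 10 mg per kg body weight in 1% methylcellulose, or with the methylcellulose alone (vehicle). Depot, genotype and treatment give 8 groups of 2 libraries. They are K107R with rosiglitazone, WT with rosiglitazone, K107R with vehicle and WT with vehicle, in eWAT and again in iWAT. The mouse strain, and whether the 2 libraries of a group or the 2 depots come from separate mice, are not given in the sources used here, so the p-values speak of the differences between these libraries, part of which may be technical.

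A fat cell keeps triacylglycerol in a lipid droplet and empties it in steps. Adipose triglyceride lipase (ATGL, the product of Pnpla2) removes the first acyl chain, hormone-sensitive lipase (HSL, Lipe) cuts the resulting diacylglycerol, and monoacylglycerol lipase (Mgll) cuts the last chain from glycerol. ABHD5 activates ATGL once perilipin on the droplet lets it go, and G0S2 binds ATGL and inhibits it. Noradrenaline starts the process in mouse fat cells through the beta3-adrenergic receptor (Adrb3), which raises cAMP, so that protein kinase A phosphorylates HSL and perilipin, and insulin opposes it by lowering cAMP. Pnpla2 and G0s2 are known targets of PPARg in mouse fat cells.

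On the GRCm38 assembly with the GENCODE annotation, Pnpla2 lies on chr7 (141455198 to 141460743, plus strand) and Lipe on chr7 as well (25379527 to 25398710, minus strand). Mgll lies on chr6 (88724412 to 88828360, plus), Abhd5 on chr9 (122351608 to 122381524, plus), G0s2 on chr1 (193272161 to 193273217, minus) and Adrb3 on chr8 (27225776 to 27250616, minus). Lipe overlaps the antisense transcript 4732471J01Rik, which had 3.72 to 12.9 FPKM, and G0s2 lies within Lamb3 on the opposite strand, which had 1.04 to 5.71 FPKM. The strand setting of the authors' counting is not given in the sources used here, so reads shared with these neighbours cannot be told apart. Both levels are far below those of Lipe and G0s2.

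RefSeq starts were matched for Pnpla2, Lipe, Mgll, Abhd5 and G0s2. The 250 bases before the start are shown for Pnpla2, Mgll and Abhd5, the members that rose with rosiglitazone in both depots once the replicate number is a block, so that their start regions can be compared. They are written 5′ to 3′ on the gene's strand from GRCm38.p6, with capitals for a CACGTG (E-box), a TGACG (the core of cAMP response elements) or an AGGTCA on either strand (the unit of nuclear receptor elements).
Pnpla2 chr7:141454938-141455187: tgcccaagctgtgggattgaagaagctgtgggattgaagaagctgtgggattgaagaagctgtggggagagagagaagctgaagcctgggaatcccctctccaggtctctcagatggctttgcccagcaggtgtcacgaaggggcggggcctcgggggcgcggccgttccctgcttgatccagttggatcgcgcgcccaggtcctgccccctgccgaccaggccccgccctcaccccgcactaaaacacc
Mgll chr6:88724162-88724411: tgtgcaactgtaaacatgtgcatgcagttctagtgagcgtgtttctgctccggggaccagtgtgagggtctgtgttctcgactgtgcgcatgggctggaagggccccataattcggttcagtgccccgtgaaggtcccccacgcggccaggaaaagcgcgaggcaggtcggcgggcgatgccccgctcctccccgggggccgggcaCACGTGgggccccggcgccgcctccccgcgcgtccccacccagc
Abhd5 chr9:122351366-122351615: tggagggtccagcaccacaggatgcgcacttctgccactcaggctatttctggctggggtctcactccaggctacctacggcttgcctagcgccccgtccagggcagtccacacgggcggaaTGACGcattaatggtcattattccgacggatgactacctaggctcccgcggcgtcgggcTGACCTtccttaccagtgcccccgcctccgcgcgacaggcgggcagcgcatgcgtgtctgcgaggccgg
DR1, AGGNCA repeated after a gap of 1 base, which is the form of element that PPARg binds with RXR, was in the windows of none of the 5 genes on either strand, and 0.338% of 32851 promoter windows of this length held it. AGGTCA, a form of the unit of DR1, was found in Abhd5 at position -69 (14% of windows hold it), and TGACG in Abhd5 at -128 and in G0s2 at -246 (17.8% of windows). CACGTG stood at -44 in Mgll and at -155 in Lipe (6.02% of windows), and the GC box GGGCGG in a window of each of the 5 genes (32.7% of windows). Mgll and Lipe have more than 1 start window. The GC box of Mgll lies at -121 in its other window, chr6:88724454-88724703, which is not shown. Positions count back from the start and AGGTCA can be part of a DR1. A match describes letters only.

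The libraries carry replicate numbers whose meaning the labels do not give, and the members split by them. Abhd5 and Adrb3 were lower in library 2 than in library 1 of all 8 groups (ratios 0.415 to 0.873 and 0.431 to 0.958), while G0s2 was higher in library 2 of all 8 (ratios 1.22 to 1.92). Pnpla2 and Mgll were lower in library 2 in 7 of 8 groups, and Lipe was higher in 7 of 8. In eWAT K107R rosiglitazone the 2 libraries were closest for Abhd5, G0s2 and Adrb3, and there the exceptions for Pnpla2, Mgll and Lipe were found. Beta-actin (Actb) was lower in library 2 of all 8 groups, at 21.7 to 261 FPKM in libraries numbered 2 other than that group's, which had 938 FPKM, against 770.8 to 2016 FPKM in those numbered 1. For this reason the test is given in 2 forms. In the first, group means are compared over all 16 libraries with limma. The second is the same fit with the replicate number as a block, since the numbers were taken to pair the libraries. In eWAT K107R rosiglitazone the split was weak, with an Actb ratio of 0.643 against a median of 0.047 over the 8 groups. The eWAT K107R pair numbered 2 had the highest drug ratios for Pnpla2 (2.35), Mgll (2.14) and Abhd5 (2.88). In pairs with library 2 of that group, the number split and the drug or genotype difference cannot be told apart, with the block either. A gene is said to pass at a Benjamini-Hochberg adjusted p under 0.05 over the 13669 genes tested, and ± after a log2 difference is its standard error.

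**Figure D1:**
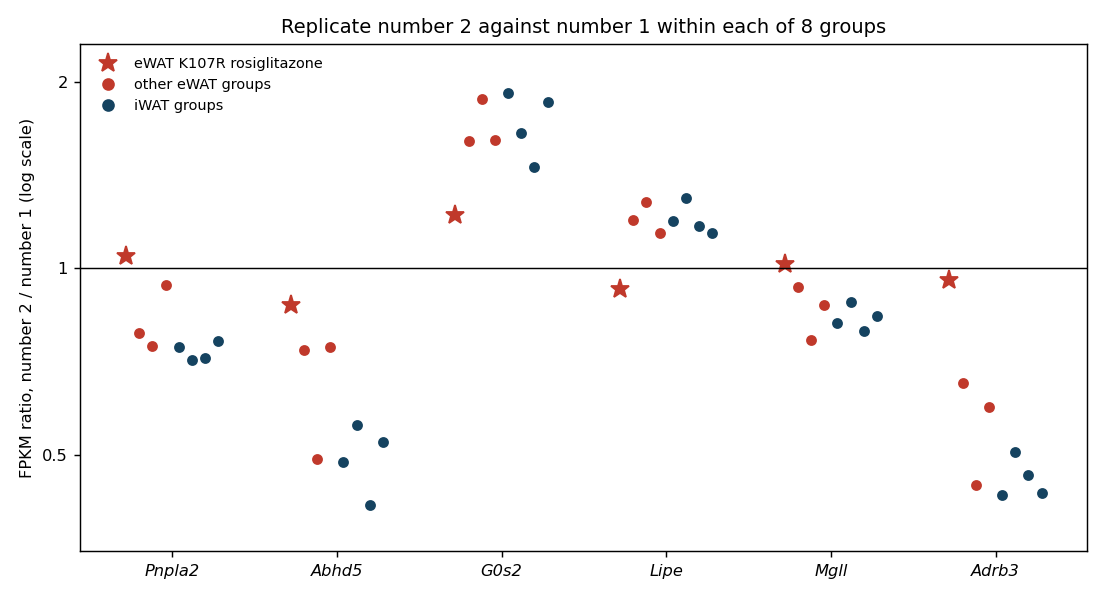
Ratio of the FPKM in library 2 to that in library 1 for each of the 6 genes (log axis), 1 point per group of 2 libraries, with the star for eWAT K107R rosiglitazone. G0s2 lies above 1 in all 8 groups and Abhd5 and Adrb3 lie below 1 in all 8.

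The libraries of both depots held fat cell RNA. Its presence does not tell the depots apart, but its level differed, and 5 of 6 fat cell markers passed as lower in eWAT. The 6 fat cell markers (Adipoq, Plin1, Cidec, Lep, Cfd, Retn) were all present, summing to 4759 to 7860 FPKM in eWAT and 7678 to 13375 FPKM in iWAT. The eWAT K107R vehicle libraries stand apart. Epididymis markers (6 of 7 in the table) summed to 3151 and 3011 FPKM there and to 0 to 5.33 FPKM in every other library, and other epithelial markers summed to 108 and 110 FPKM there against 4.18 to 8.97 FPKM in the other eWAT libraries. The eWAT results with these libraries are given with their values without them, or with those of WT mice or rosiglitazone mice alone. In bulk tissue, a smaller share of fat cells and less RNA of a gene per fat cell cannot be told apart.

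By their mean over 16 libraries, Lipe and Pnpla2 were the most abundant of the 6, and the receptor Adrb3 the least. FPKM is per length, but the order of the abundant genes shifts with the replicate number, so their ranking is a description. G0s2 was 0.382 to 0.715 of Pnpla2 in libraries numbered 1 and 0.578 to 1.74 of it in those numbered 2. The mean over 16 libraries was 933 FPKM for Lipe (rank 63 of 14023 genes), 881 FPKM for Pnpla2 (rank 69), 655 FPKM for G0s2 (rank 117) and 505 FPKM for Mgll (rank 161). ABHD5 and the receptor are encoded by scarcer RNA, with 47.7 FPKM for Abhd5 (rank 1782) and 16.03 FPKM for Adrb3 (rank 4699). In 5 of the 6 genes iWAT K107R rosiglitazone was the highest group. Adrb3 went its own way, with its highest mean, 22.7 ± 8.12 FPKM, in eWAT WT vehicle and its lowest, 6.02 ± 3.12 FPKM, in iWAT K107R vehicle (SD, n = 2 each).

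**Figure D2:**
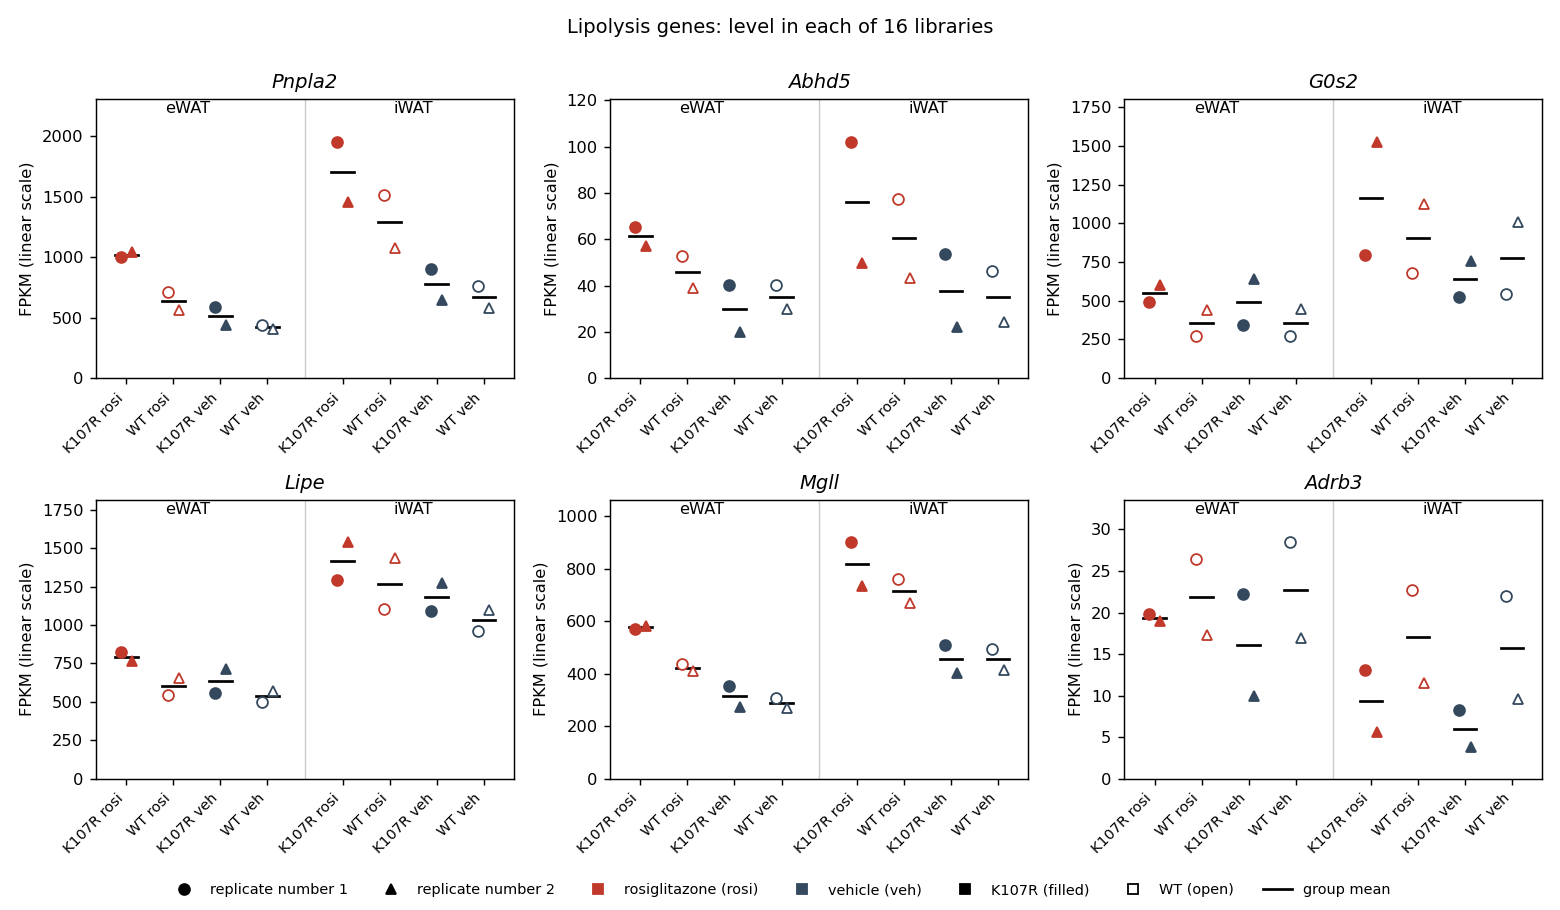
FPKM (linear axis) of the 6 genes in each of the 16 libraries, by group; circles are library 1, triangles library 2, filled symbols K107R, open symbols WT, red rosiglitazone (rosi), dark blue vehicle (veh) and lines group means. Pnpla2 and Mgll reach their highest levels in iWAT with rosiglitazone, and Adrb3 is lowest in iWAT of K107R mice.

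Pnpla2 spanned the widest range of group means of the 6, with the highest mean at 4.03 times the lowest. In falling order it averaged 1705 ± 351 FPKM in iWAT K107R rosiglitazone, 1295 ± 308 in iWAT WT rosiglitazone, 1021 ± 31.7 in eWAT K107R rosiglitazone, 777 ± 182 in iWAT K107R vehicle, 669 ± 127 in iWAT WT vehicle, 639 ± 109 in eWAT WT rosiglitazone, 518 ± 105 in eWAT K107R vehicle and 423 ± 18.5 in eWAT WT vehicle (SD, n = 2 each). Of these 7 neighbouring pairs of groups, 4 overlap in their libraries. The exceptions are eWAT K107R rosiglitazone, which overlaps neither of its neighbours, and the pair of eWAT vehicle groups. Overlaps were 4 of 7 for Mgll, 5 of 7 for Lipe and 7 of 7 for Abhd5, G0s2 and Adrb3.

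The RNA of the first and the last enzyme of the pathway rose with rosiglitazone in both depots. Pnpla2 and Mgll passed the test in the average over genotypes in eWAT and in iWAT, by 1.73-fold and 1.65-fold in eWAT and by 2.06-fold and 1.68-fold in iWAT. With the replicate block Abhd5 passed as well in both depots, and G0s2 and Lipe in iWAT. Adrb3 passed in neither. The members past the test, all higher, numbered 2 of 6 in eWAT against 1.59% of all genes tested, and 2 of 6 in iWAT against 3.11%. With the block they were 3 of 6 in eWAT (5.52% of all genes) and 5 of 6 in iWAT (9.3%). By genotype, K107R mice had 1 member past the test in eWAT (Mgll, 1.29% of all genes) and 2 in iWAT (Pnpla2 and Mgll, 1.92%), and WT mice 0 in eWAT (0.168%) and 0 in iWAT (0.9%), though Pnpla2 and Mgll were at an unadjusted p under 0.05 in both WT comparisons. With the block K107R mice had 3 in eWAT (5.05%) and 4 in iWAT (6.61%), and WT mice 1 in eWAT (Mgll, 1.02%) and 2 in iWAT (Pnpla2 and Mgll, 4.02%). When each of the 4 libraries of such a comparison was left out in turn with the block, the calls of Pnpla2 and Mgll in K107R mice of both depots and of Pnpla2 in iWAT WT were kept in 4 of 4. That of Mgll was kept in 0 of 4 in eWAT WT (adjusted p 0.114 to 0.235) and in 1 of 4 in iWAT WT (up to 0.0642). In K107R mice Abhd5 was kept in 2 of 4 in eWAT and 2 of 4 in iWAT (up to 0.132 and 0.148), and G0s2 in 2 of 4 in iWAT (up to 0.0681). Over all genes the calls in iWAT were 425 higher and 308 lower in the average and 123 higher and 106 lower in WT mice, against 420 and 621, and 133 and 196, after each library was rescaled to a common median ratio.

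Pnpla2, the gene of ATGL, had 998 and 1043 FPKM in eWAT K107R rosiglitazone, 716 and 562 in eWAT WT rosiglitazone, 593 and 443 in eWAT K107R vehicle and 436 and 409.6 in eWAT WT vehicle, library 1 before library 2 here and in all such sentences. In iWAT it had 1954 and 1457 FPKM in K107R rosiglitazone, 1513 and 1077 in WT rosiglitazone, 906 and 648 in K107R vehicle and 759 and 579 in WT vehicle. Within each genotype and depot both rosiglitazone libraries were above both vehicle libraries, and over both genotypes the iWAT libraries did not overlap, whereas in eWAT the lower WT rosiglitazone library fell under the higher K107R vehicle library. The averaged difference was 0.79 ± 0.18 log2 in eWAT (adjusted p = 0.0306) and 1.04 ± 0.18 log2 in iWAT (adjusted p = 0.00751), and with the block the p-values were 0.000443 and 9.4e-05. The eWAT call was lost when any library other than eWAT K107R vehicle 1 was left out (adjusted p 0.0371 to 0.140 over the 8 omissions), and also without both eWAT K107R vehicle libraries, where the WT difference of 0.59 log2 is all that remains (adjusted p = 0.945). With the block, each of the 8 omissions kept it. By genotype the differences were 0.99 ± 0.25 log2 in eWAT of K107R mice (adjusted p = 0.0599, 0.00101 with the block, 0.0146 after rescaling), 0.59 ± 0.25 in eWAT of WT mice (0.960, 0.0657 with the block), 1.14 ± 0.25 in iWAT of K107R mice (0.0346) and 0.94 ± 0.25 in iWAT of WT mice (0.134, 0.00357 with the block, 0.0152 after rescaling). The call in iWAT of K107R mice was lost in 3 of 4 omissions (adjusted p up to 0.257) and with the iWAT libraries alone (0.267), as was that of Mgll (0.84 ± 0.18 log2, adjusted p = 0.0286; up to 0.227 and 0.219). With the iWAT libraries alone the averaged calls of both genes in iWAT were lost as well (adjusted p = 0.118 for Pnpla2 and 0.101 for Mgll).

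Mgll, the gene of monoacylglycerol lipase, had 572 and 581 FPKM in eWAT K107R rosiglitazone, 437 and 408 in eWAT WT rosiglitazone, 355 and 272 in eWAT K107R vehicle and 306 and 267 in eWAT WT vehicle. In iWAT it had 901 and 734 FPKM in K107R rosiglitazone, 759 and 670 in WT rosiglitazone, 509.9 and 404 in K107R vehicle and 495 and 415 in WT vehicle. The rosiglitazone libraries lay above all vehicle libraries of their depot, in eWAT and in iWAT. The averaged difference was 0.73 ± 0.13 log2 in eWAT (adjusted p = 0.00687) and 0.75 ± 0.13 log2 in iWAT (adjusted p = 0.00728). No single omitted library ended either call, but without both eWAT K107R vehicle libraries the eWAT call rests on WT mice alone and was lost (0.56 log2, adjusted p = 0.409). The difference in eWAT of K107R mice, 0.89 ± 0.18 log2 (adjusted p = 0.0169), lost its call in 3 of 4 omissions, those of either rosiglitazone library and of vehicle library 2 (adjusted p up to 0.167), and after rescaling (adjusted p = 0.0668).

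**Figure D3:**
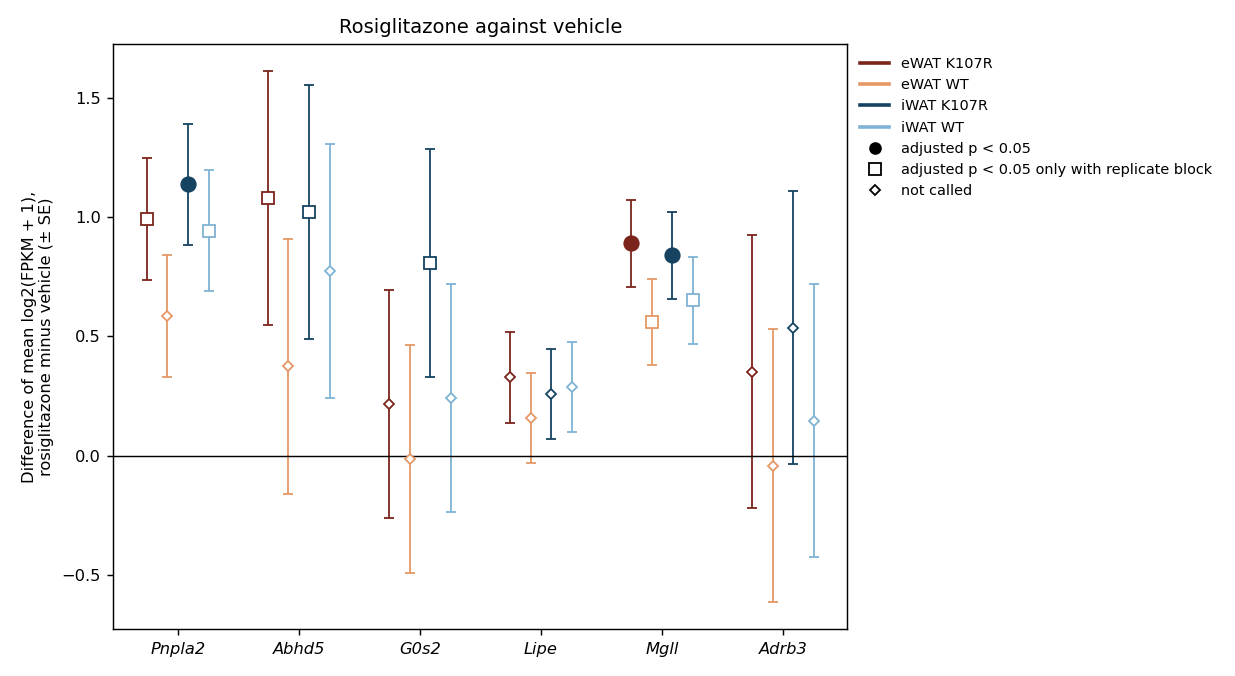
log2 difference in level, rosiglitazone minus vehicle, for the 6 genes by depot and genotype (bars ± SE). Filled circles pass the test in the fit without the block, open squares pass only with the replicate block, and small diamonds pass in neither; Pnpla2 and Mgll have the filled circles.

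Abhd5, which activates ATGL, had 65.4 and 57.1 FPKM in eWAT K107R rosiglitazone, 52.7 and 38.9 in eWAT WT rosiglitazone, 40.3 and 19.9 in eWAT K107R vehicle and 40.2 and 29.96 in eWAT WT vehicle. In iWAT it had 102 and 49.7 FPKM in K107R rosiglitazone, 77.5 and 43.3 in WT rosiglitazone, 53.5 and 22.2 in K107R vehicle and 46.1 and 24.2 in WT vehicle. The groups overlapped, with library 2 the lower in each, and the rosiglitazone library was the higher one in 8 of 8 pairs with the same number, by 1.30 to 2.88 times. Its averaged difference of 0.73 ± 0.38 log2 in eWAT and 0.90 ± 0.38 log2 in iWAT did not pass (adjusted p = 0.585 and 0.293), and passed with the block in both depots (adjusted p = 0.0161 and 0.00433). In eWAT that call was kept in 5 of 8 omissions of a library (adjusted p up to 0.0814) and in iWAT in 8 of 8. In eWAT of WT mice alone, without the K107R vehicle libraries, the difference was 0.37 ± 0.53 log2 (adjusted p = 1, 0.762 with the block). After rescaling the iWAT difference passed without the block (0.85 log2, adjusted p = 0.0242).

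G0s2, the inhibitor of ATGL, had 495 and 603 FPKM in eWAT K107R rosiglitazone, 273 and 439 in eWAT WT rosiglitazone, 343 and 643 in eWAT K107R vehicle and 276 and 444 in eWAT WT vehicle. In iWAT it had 796 and 1527 FPKM in K107R rosiglitazone, 681 and 1125 in WT rosiglitazone, 521 and 758 in K107R vehicle and 543 and 1007 in WT vehicle. In eWAT the rosiglitazone library was higher in 1 of 4 same-numbered pairs and in iWAT in 4 of 4, by 1.12 to 2.01 times, against 27.6% of all genes that were higher in all 4 iWAT pairs. The averaged difference was 0.53 ± 0.34 log2 in iWAT (adjusted p = 0.634, 0.00736 with the block) and 0.10 ± 0.34 log2 in eWAT (adjusted p = 0.968, 0.578 with the block). After rescaling the eWAT value was -0.03 log2. The difference between the depots in this response, eWAT minus iWAT, was -0.42 ± 0.48 log2 and did not pass (adjusted p = 1, 0.204 with the block).

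The ratio of inhibitor to enzyme RNA was lower with rosiglitazone, as were those of Lipe, Abhd5 and Mgll to Pnpla2 in most pairs. G0s2 divided by Pnpla2 within a library, a description with no test, was 0.496 and 0.578 in eWAT K107R rosiglitazone, 0.382 and 0.780 in eWAT WT rosiglitazone, 0.579 and 1.45 in eWAT K107R vehicle and 0.632 and 1.08 in eWAT WT vehicle. In iWAT it was 0.407 and 1.05 in K107R rosiglitazone, 0.450 and 1.04 in WT rosiglitazone, 0.576 and 1.17 in K107R vehicle and 0.715 and 1.74 in WT vehicle. The rosiglitazone library had the lower ratio in 8 of 8 same-numbered pairs, at 0.398 to 0.896 of its vehicle partner. Lipe divided by Pnpla2 was likewise lower in 8 of 8 pairs, at 0.454 to 0.877 of the vehicle value. The ratio of the activator Abhd5 to Pnpla2 was lower in 7 of 8 pairs (0.798 to 1.22 of the vehicle value), and that of Mgll to Pnpla2 in 7 of 8 (0.769 to 1.11). These ratios share Pnpla2, whose own level was higher in all 8 pairs.

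**Figure D4:**
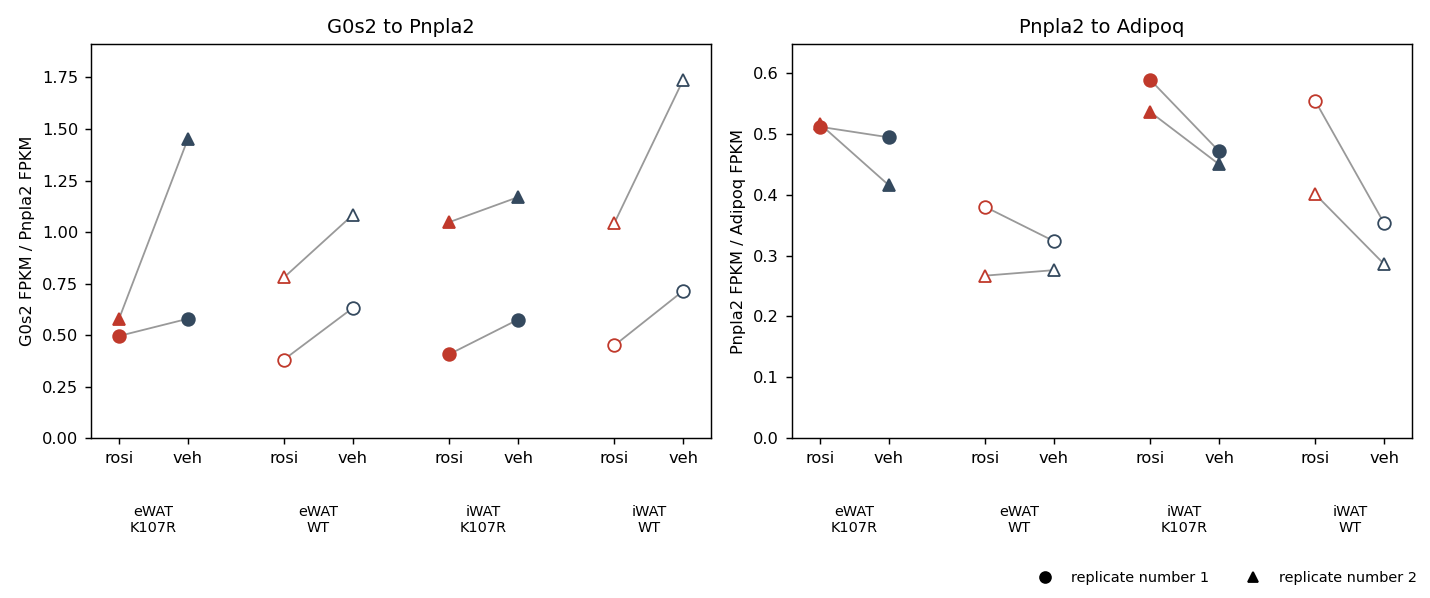
Within-library ratios of FPKM by group, G0s2 to Pnpla2 and Pnpla2 to Adipoq; circles are library 1, triangles library 2, filled symbols K107R, open symbols WT, red rosiglitazone and dark blue vehicle, and lines join libraries of the same number. The G0s2 to Pnpla2 lines run lower in rosiglitazone in 8 of 8 pairs, and the Pnpla2 to Adipoq lines run higher in 7 of 8.

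Lipe, the gene of HSL, had 826 and 764 FPKM in eWAT K107R rosiglitazone, 546 and 654 in eWAT WT rosiglitazone, 559 and 715 in eWAT K107R vehicle and 501 and 572 in eWAT WT vehicle. In iWAT it had 1291 and 1539 FPKM in K107R rosiglitazone, 1102 and 1433 in WT rosiglitazone, 1089 and 1274 in K107R vehicle and 964 and 1098 in WT vehicle. The higher library of each same-numbered pair was again that with rosiglitazone, in 8 of 8 pairs, but by 1.07 to 1.48 times only. Pnpla2, Lipe, Mgll and Abhd5 are thus the 4 members higher in all 8 pairs, as were 12.7% of all genes tested. The averaged difference for Lipe was 0.24 ± 0.13 log2 in eWAT (adjusted p = 0.649, 0.0891 with the block) and 0.27 ± 0.13 log2 in iWAT (adjusted p = 0.410, 0.0447 with the block, lost in each of 8 omissions). Adrb3, the receptor, had 19.8 and 19.0 FPKM in eWAT K107R rosiglitazone, 26.4 and 17.2 in eWAT WT rosiglitazone, 22.3 and 9.96 in eWAT K107R vehicle and 28.5 and 16.98 in eWAT WT vehicle. Its averaged drug difference was 0.15 ± 0.40 log2 in eWAT and 0.34 ± 0.40 log2 in iWAT (adjusted p = 0.968 and 0.984).

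Adipoq, the fat cell hormone adiponectin and itself a PPARg target, passed with rosiglitazone too, by 0.65 ± 0.12 log2 in eWAT and 0.61 ± 0.12 log2 in iWAT (adjusted p = 0.0072 and 0.0127). Set against it, Pnpla2 was 0.511 and 0.516 of Adipoq in eWAT K107R rosiglitazone, 0.380 and 0.267 in eWAT WT rosiglitazone, 0.494 and 0.415 in eWAT K107R vehicle and 0.324 and 0.276 in eWAT WT vehicle. In iWAT the share was 0.588 and 0.536 in K107R rosiglitazone, 0.553 and 0.400 in WT rosiglitazone, 0.471 and 0.450 in K107R vehicle and 0.353 and 0.286 in WT vehicle. Rosiglitazone libraries had the higher share in 4 of 4 iWAT pairs (1.19 to 1.57 times) and in 3 of 4 eWAT pairs (0.967 to 1.24 times). Lipe divided by Adipoq was lower with rosiglitazone in 8 of 8 pairs (0.564 to 0.983). Mgll divided by Adipoq moved little, at 0.964 to 1.215 of the vehicle value, and was higher in 6 of 8 pairs. The ratio of Abhd5 to Adipoq was higher in 4 of 4 iWAT pairs but in 1 of 4 eWAT pairs (0.915 to 1.518 over both depots). Those of G0s2 and Adrb3 to Adipoq were each lower in 7 of 8 pairs (0.495 to 1.07 and 0.546 to 1.006). Beside the eWAT drug difference, fat cell markers summed to 7507 and 7860 FPKM in K107R rosiglitazone and 5646 and 6252 in WT rosiglitazone, against 5710 and 5865 in K107R vehicle and 4759 and 4888 in WT vehicle. In iWAT the sums were 13022 and 13375 FPKM in K107R rosiglitazone and 9667 and 10815 in WT rosiglitazone, against 9578 and 8288 in K107R vehicle and 8055 and 7678 in WT vehicle. Of the 6 markers 2 passed as higher in each depot. With the block 2 passed as higher and 1 as lower in eWAT, and 3 and 1 in iWAT. The lower ones were Cfd in eWAT (-0.76 ± 0.22 log2, adjusted p = 0.0903, 0.0258 with the block) and Lep in iWAT (-0.53 ± 0.29, 0.508, 0.0279 with the block). Brown fat cell markers (5) also moved, summing to 141 and 152 FPKM in eWAT K107R rosiglitazone and 47.8 and 50.9 in eWAT WT rosiglitazone, against 42.1 and 41.7 in eWAT K107R vehicle and 32.8 and 33.6 in eWAT WT vehicle. In iWAT they summed to 203 and 191 FPKM in K107R rosiglitazone and 233 and 279 in WT rosiglitazone, against 102 and 103 in K107R vehicle and 131 and 134 in WT vehicle. Of these 5, 4 passed as higher in eWAT and 2 in iWAT. Skeletal muscle markers passed as lower in 2 of 5 in eWAT (median -0.50 log2) and 4 of 5 in iWAT (-0.79 log2), and neutrophil markers as higher in 3 of 4 in eWAT (median 1.03 log2) and 0 of 4 in iWAT. All 6 epididymis and all 5 other epithelial markers were lower with rosiglitazone in eWAT, where the K107R vehicle libraries held them. The part of these markers in the drug results was not tested.

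K107R mice had more Pnpla2 RNA than WT mice in 8 of 8 same-numbered pairs, but the averaged differences between genotypes did not pass without the replicate block for any member. In eWAT 0 of 6 passed, with Pnpla2 and Lipe at an unadjusted p under 0.05, against 4.3% of all genes. With the block 4 of 6 passed, all higher in K107R mice, against 11.9% of all genes. They were Pnpla2 (0.48 ± 0.18 log2, adjusted p = 0.271, 0.0109 with the block), G0s2 (0.54 ± 0.34, 0.737, 0.00851 with the block), Lipe (0.32 ± 0.13, 0.355, 0.0283 with the block) and Mgll (0.28 ± 0.13, 0.453, 0.0369 with the block). The G0s2 call was kept in 8 of 8 omissions of a library, that of Pnpla2 in 5, of Lipe in 3 and of Mgll in 2. Pnpla2 and Lipe were the members higher in all 8 pairs over both depots, at 1.08 to 1.85 times and 1.07 to 1.51 times WT, as were 3.69% of all genes. The share of Pnpla2 in Adipoq was higher in K107R mice in 8 of 8 pairs as well (1.06 to 1.93 times). Those of Lipe, Mgll, Abhd5 and G0s2 were each higher in 7 of 8 pairs (0.965 to 1.74, 0.977 to 1.48, 0.922 to 1.53 and 0.962 to 2.01 times). The share of Adrb3 was lower in 7 of 8 (0.420 to 1.15 times). Adipoq itself differed by -0.16 ± 0.12 log2 in eWAT and -0.09 ± 0.12 log2 in iWAT (adjusted p = 0.819 and 1). The other fat cell markers did not all move alike. Retn was lower in K107R mice (-0.31 ± 0.37 log2 in eWAT, -0.32 ± 0.37 in iWAT) and did not pass in either fit. Lep differed by 0.09 ± 0.29 log2 in eWAT and 0.43 ± 0.29 in iWAT, and Plin1 by 0.11 ± 0.29 in iWAT, without passing in either fit. In eWAT 1 of 6 passed as higher, and 3 with the block, namely Cidec (0.64 ± 0.13 log2, adjusted p = 0.0173), Cfd (0.73 ± 0.22, 0.124, 0.0327 with the block) and Plin1 (0.38 ± 0.29, 0.867, 0.0314 with the block). In iWAT 0 of 6 passed, and 2 with the block, Cidec (0.46 ± 0.13 log2, adjusted p = 0.0862, 0.00193 with the block) and Cfd (0.73 ± 0.22, 0.115, 0.0338 with the block). In eWAT brown fat markers were higher in K107R mice in 3 of 5 (median 1.16 log2, 4 of 5 with the block), neutrophil markers in 3 of 4 (0.89 log2) and skeletal muscle markers in 2 of 5 (0.32 log2), and lymphocyte markers lower in 2 of 6 (-0.66 log2, 4 of 6 with the block). The part of these markers in the genotype results was not tested. Split by treatment, eWAT of rosiglitazone mice had 0 of 6 past the test, with Pnpla2 and Mgll at an unadjusted p under 0.05 (0.907% of all genes), and 2 with the block (Pnpla2 and G0s2, 3.47%), each kept in 1 of 4 omissions of a library (adjusted p up to 0.206 and 0.276), and eWAT of vehicle mice 0 in both fits, also without adjustment in the fit without the block (3.35% and 8.3% of all genes). The epididymis markers of the K107R vehicle libraries enter the eWAT comparison of genotypes (6 of 6 higher in K107R mice, and 5 of 5 other epithelial markers), and their part was not tested. In rosiglitazone mice, where the markers summed to 0 to 5.33 FPKM, the Pnpla2 difference was 0.68 ± 0.25 log2 (adjusted p = 0.543, 0.0266 with the block) and that of G0s2 0.66 ± 0.48 (1, 0.0435 with the block), while Lipe (0.41 ± 0.19 log2) and Mgll (0.45 ± 0.18 log2) did not pass there with the block either (adjusted p = 0.0968 and 0.0504). After rescaling the averaged Pnpla2 difference in eWAT passed without the block (0.54 log2, adjusted p = 0.0152).

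The receptor went the other way in iWAT. Adrb3 had 13.1 and 5.64 FPKM in iWAT K107R rosiglitazone, 22.7 and 11.5 in iWAT WT rosiglitazone, 8.23 and 3.82 in iWAT K107R vehicle and 21.9 and 9.53 in iWAT WT vehicle. Each K107R library was under the WT library of the same number and treatment, at 0.375 to 0.576 of it, although libraries of different numbers overlap between genotypes. Over all genes 25.6% were lower in all 4 of these pairs. The averaged difference was -1.03 ± 0.40 log2 (adjusted p = 0.307, 0.00238 with the block), it was kept with the block in 8 of 8 omissions, and after rescaling it was -0.98 log2 (adjusted p = 0.0356). It was 1 of 6 past the test with the block in iWAT (11.1% of all genes), with 0 of 6 without it (4.69%), where Adrb3 was the member with an unadjusted p under 0.05. In vehicle mice the difference was -1.22 ± 0.57 log2 (adjusted p = 1, 0.0286 with the block, 1 of 6 against 2.12% of all genes, and 0 of 6 against 0.578% without the block, also unadjusted), and the call with the block was kept in 0 of 4 omissions of a library (adjusted p 0.103 to 0.286). In rosiglitazone mice it was -0.83 ± 0.57 log2 (adjusted p = 0.990, 0.0536 with the block, 0 of 6 against 4.13% and 9.36% of all genes, and 0 unadjusted without the block). Adrb3 divided by Adipoq was lower in K107R mice in all 4 iWAT pairs (0.420 to 0.563 of WT). Lymphocyte markers (6) moved with it, summing to 29.6 and 18.8 FPKM in iWAT K107R rosiglitazone and 94.7 and 58.3 in iWAT K107R vehicle, against 219 and 148 in iWAT WT rosiglitazone and 147 and 91.0 in iWAT WT vehicle. Skeletal muscle markers (5) summed to 23.1 and 28.6 FPKM in iWAT K107R rosiglitazone and 86.8 and 84.9 in iWAT K107R vehicle, against 11.3 and 14.9 in iWAT WT rosiglitazone and 24.02 and 25.8 in iWAT WT vehicle. The part of either in the Adrb3 difference was not tested. In eWAT the Adrb3 difference was -0.33 ± 0.40 log2 (adjusted p = 0.991), and the other 5 members differed in iWAT by 0.05 to 0.31 log2.

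Whether the response to rosiglitazone differs between genotypes, the question of the crossed design, was tested as an interaction. No member passed in either depot, without the block or with it, and in the fit without the block none was at an unadjusted p under 0.05. In eWAT the difference of the responses, K107R minus WT, was 0.41 ± 0.36 log2 for Pnpla2, 0.33 ± 0.26 for Mgll, 0.17 ± 0.27 for Lipe and 0.71 ± 0.75 for Abhd5 (adjusted p = 0.995 each, 2.53% of all genes past the test, 4.2% with the block). In iWAT it was 0.19 ± 0.36 log2 for Pnpla2 and 0.57 ± 0.67 for G0s2 (adjusted p = 1 each, 0.966% of all genes, 2.53% with the block). The standard errors, 0.26 to 0.81 log2 for the 6 genes, bound what this design could detect. The response of the depots to the drug was compared in the same way, and 0 of 6 passed in either fit, with 0 at an unadjusted p under 0.05 without the block (2.21% of all genes past the test, 3.83% with the block).

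**Figure D5:**
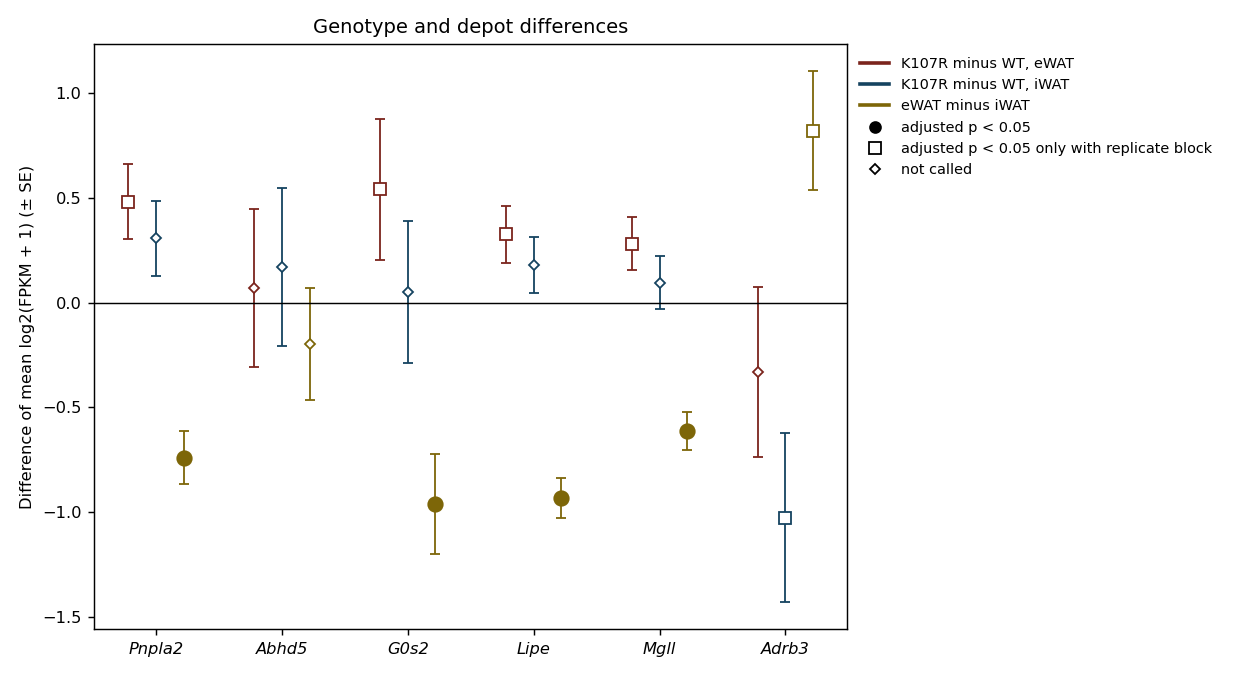
log2 differences in level for the 6 genes, K107R minus WT by depot and eWAT minus iWAT (bars ± SE), with the same symbols as in the plot of the drug differences. Adrb3 is negative for K107R minus WT in iWAT (-1.03 log2) and positive between depots (0.82 log2), while Pnpla2, Lipe, Mgll and G0s2 are lower in eWAT than in iWAT.

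All 3 enzymes and the ATGL inhibitor had less RNA in eWAT than in iWAT. Lipe averaged 642 ± 116 FPKM in eWAT and 1224 ± 195 in iWAT, with no overlap between the depots (-0.93 ± 0.09 log2, adjusted p = 2.82e-05). G0s2 averaged 439.5 ± 139 FPKM in eWAT and 869.7 ± 338 in iWAT (-0.96 ± 0.24 log2, adjusted p = 0.0105). Pnpla2 averaged 650.2 ± 249.99 FPKM in eWAT and 1112 ± 486 in iWAT (-0.74 ± 0.13 log2, adjusted p = 0.00115), and Mgll 399.8 ± 125 in eWAT and 611 ± 181 in iWAT (-0.61 ± 0.09 log2, adjusted p = 0.000409; SD, n = 8 libraries each). These 4 of 6 members passed as lower, against 12.5% of all genes lower, 19.9% higher and 32.4% in either direction, and they were lower in eWAT in 8 of 8 pairs of libraries matched for genotype, treatment and number, as were 11.3% of all genes. Over all genes the split was 2720 higher and 1714 lower, and 2720 and 2706 after rescaling. Abhd5, the activator, did not pass (-0.20 ± 0.27 log2, adjusted p = 0.637, 0.169 with the block) and was lower in eWAT in 6 of 8 pairs. Abhd5 divided by Pnpla2 was higher in eWAT in 8 of 8 pairs (1.15 to 1.75 times). Adrb3 averaged 20.0 ± 5.81 FPKM in eWAT and 12.1 ± 7.001 in iWAT, higher in eWAT in 8 of 8 pairs (1.16 to 3.36 times, as 22.7% of all genes were). Its difference of 0.82 ± 0.29 log2 had an adjusted p of 0.0519 and passed with the block (0.000179), where 5 of 6 members and 55.8% of all genes passed. With the block within each depot 6 of 6 passed (Abhd5 at adjusted p = 0.0127). That fit compares the depots at the level of library 1, so its calls are not of the averaged differences given here. After rescaling Adrb3 passed without a block (0.71 log2, adjusted p = 0.00629). Without both eWAT K107R vehicle libraries the 4 calls were kept (adjusted p 0.000168 to 0.0110), and Adrb3 stood at 0.67 log2 (adjusted p = 0.165).

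The cell markers moved with depot as well. Macrophage markers (5 of 5 passed as higher in eWAT) summed to 818 to 1446 FPKM in eWAT and 201 to 349 FPKM in iWAT. Mesothelium markers (5 of 5 higher) summed to 44.6 to 71.2 FPKM in eWAT and 1.34 to 4.61 in iWAT, lymphocyte markers (4 of 6 lower) to 4.75 to 21.1 FPKM in eWAT and 18.8 to 219 in iWAT, and 5 of 6 fat cell markers were lower in eWAT. Adipoq differed by -0.54 log2 (adjusted p = 0.000514). Divided by Adipoq, Pnpla2 and Lipe were each lower in eWAT in 7 of 8 pairs (0.667 to 1.05 and 0.582 to 1.09 times iWAT). Mgll and G0s2 divided by it were each lower in 5 of 8 (0.779 to 1.12 and 0.498 to 1.15 times). The ratio of Abhd5 to Adipoq was higher in eWAT in 7 of 8 pairs (0.988 to 1.69 times) and that of Adrb3 in 8 of 8 (1.68 to 4.52 times). Brown fat markers were lower in eWAT in 4 of 5 (median -1.20 log2) and skeletal muscle markers in 5 of 5 (-1.13 log2), and epididymis markers (6 of 6) and other epithelial markers (5 of 5) were higher. Their part in the depot differences was not tested.

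The wider pathway was read from a list of 54 genes in 8 roles, of which 52 are counted, since Fabp4 and Lpl are listed at 0 in whole groups. With rosiglitazone 7 passed as higher and 0 as lower in eWAT, with a median difference of 0.33 log2 against 0.10 log2 over all genes, of which 1.59% were higher. In iWAT 8 passed as higher and 2 as lower, with a median of 0.29 log2 against 0.02 log2, where 3.11% of all genes were higher and 2.25% lower. With the block the counts were 19 higher and 1 lower in eWAT (5.52% of all genes higher) and 21 higher and 4 lower in iWAT (9.3% higher). Without both eWAT K107R vehicle libraries, which leaves WT mice alone, 0 of the 52 passed in eWAT and 10 were at an unadjusted p under 0.05. Irs2, which carries the insulin signal to its kinases, was higher in both depots. It averaged 23.7 ± 5.97 FPKM with rosiglitazone and 12.2 ± 1.49 with vehicle in eWAT (0.88 ± 0.09 log2, adjusted p = 0.00013, 0.0567 without both eWAT K107R vehicle libraries) and 29.5 ± 7.58 with rosiglitazone and 14.2 ± 1.56 with vehicle in iWAT (0.98 ± 0.09 log2, adjusted p = 0.000187; SD, n = 4 each). Hcar2, a receptor that lowers cAMP and so restrains lipolysis, averaged 11.5 ± 0.919 FPKM with rosiglitazone and 7.41 ± 0.759 with vehicle in eWAT, and 23.7 ± 2.74 with rosiglitazone and 12.6 ± 2.18 with vehicle in iWAT (0.57 ± 0.13 and 0.87 ± 0.13 log2, adjusted p = 0.0355 and 0.00405). Ptger3, a prostaglandin receptor that also lowers cAMP, fell in iWAT to 26.2 ± 6.28 FPKM with rosiglitazone, against 53.2 ± 12.2 with vehicle (-0.99 ± 0.19 log2, adjusted p = 0.0127).

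Other roles of the list moved in part. Of the 12 genes of the cAMP relay 3 passed as higher with rosiglitazone in eWAT and 2 in iWAT, with 0 lower, and the cyclase gene Adcy3 had 0.54 ± 0.10 log2 in eWAT (adjusted p = 0.00718). Adcy5 and Adcy6, named after their values were seen, passed in both depots (0.46 and 0.46 log2 in eWAT, 0.63 and 0.40 log2 in iWAT). Of the 5 receptors that raise cAMP or cGMP 0 passed with rosiglitazone in either depot, with or without the block, and 0 were at an unadjusted p under 0.05 without it. The 6 other lipases counted had 0 past the test in each depot (1 and 0 unadjusted in eWAT and iWAT, 3 and 2 past it with the block), and so had the 5 transcription factors (1 and 2 unadjusted, 1 and 2 past it with the block). Among 7 droplet proteins Cidec, which enlarges lipid droplets, averaged 5580.5 ± 1354 FPKM with rosiglitazone and 2816 ± 526 with vehicle in iWAT (0.97 ± 0.13 log2, adjusted p = 0.00143). Fabp5, a carrier of fatty acids, averaged 939 ± 186 FPKM with rosiglitazone and 472 ± 81.0 with vehicle in iWAT (0.99 ± 0.20 log2, adjusted p = 0.0195). Plin1 and Cidec belong to the fat cell markers too, and Cidea to the brown fat markers.

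Hilpda, whose protein inhibits ATGL as G0S2 does, was the 1 of 52 listed genes whose drug response passed the test of a difference between depots without the block. Of all genes tested 2.21% passed it without the block and 3.83% with the block. With the block 3 listed genes passed as higher in eWAT minus iWAT, Hilpda, Cidea and the transcription factor gene Egr1. As lower 1 passed, the adrenergic receptor gene Adra2a (-0.53 ± 0.12 log2, adjusted p = 0.05004, 0.00433 with the block). Hilpda had 41.3 and 40.2 FPKM in eWAT K107R rosiglitazone, 37.4 and 35.5 in eWAT WT rosiglitazone, 32.3 and 24.2 in eWAT K107R vehicle and 28.9 and 27.7 in eWAT WT vehicle. In iWAT it had 14.4 and 11.4 FPKM in K107R rosiglitazone, 11.5 and 11.1 in WT rosiglitazone, 18.9 and 17.8 in K107R vehicle and 26.7 and 26.1 in WT vehicle. The rosiglitazone libraries lay above the vehicle libraries in eWAT and below them in iWAT. The difference was 0.44 ± 0.11 log2 in eWAT (adjusted p = 0.0502, 0.00583 with the block) and -0.82 ± 0.11 log2 in iWAT (adjusted p = 0.00166). The depots differed by 1.26 ± 0.16 log2 (adjusted p = 0.00103), a call kept in 16 of 16 omissions of a library. Without both eWAT K107R vehicle libraries the test is of WT mice alone in both depots, and it passed (1.51 log2, adjusted p = 0.0455). In iWAT the response was -1.16 ± 0.16 log2 in WT mice (adjusted p = 0.00661) and -0.48 ± 0.16 in K107R mice (0.159).

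Between genotypes the list had 4 genes higher and 0 lower in K107R mice in eWAT and 4 and 0 in iWAT, with medians of 0.06 log2 against -0.05 log2 over all genes in eWAT and 0.07 against -0.04 in iWAT, and with the block 12 higher and 3 lower in eWAT and 9 higher and 5 lower in iWAT. Over all genes 4.3% passed in either direction in eWAT and 4.69% in iWAT, and 11.9% and 11.1% with the block. Without both eWAT K107R vehicle libraries, which leaves rosiglitazone mice alone, 2 were higher and 0 lower in eWAT, Plin5 (2.01 log2, adjusted p = 0.0239) and Cidea (1.68 log2, adjusted p = 0.00233). Plin5, a droplet protein that binds ATGL and ABHD5, averaged 48.4 ± 15.0 FPKM in K107R mice and 10.2 ± 5.17 in WT mice in eWAT (2.202 ± 0.23 log2, adjusted p = 0.00018), and rose by 1.53 ± 0.23 log2 in iWAT (75.3 FPKM in K107R mice, 26.0 in WT mice, adjusted p = 0.003; n = 4 each). Cidea, a droplet protein abundant in brown fat, averaged 13.6 ± 7.72 FPKM in K107R mice and 4.70 ± 1.34 in WT mice in eWAT (1.21 ± 0.12 log2, adjusted p = 0.000142). Adra2a, the adrenergic receptor that lowers cAMP, was the 1 of 52 listed genes that passed an interaction, in iWAT, where 0.966% of all genes passed. It was scarce, at 2.16 and 1.51 FPKM in iWAT K107R rosiglitazone, 0.433 and 0.390 in iWAT WT rosiglitazone, 0.523 and 0.424 in iWAT K107R vehicle and 0.467 and 0.323 in iWAT WT vehicle. The interaction was 0.92 ± 0.17 log2 (adjusted p = 0.0322, 0.00213 with the block) and was lost in 7 of 8 omissions of a library, though in none with the block. It was also lost with a pseudocount of 0.1 FPKM (adjusted p = 0.0936) and with the depot's libraries alone (0.437).

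Between depots 6 of the 52 listed genes were higher in eWAT and 17 lower, with a median of -0.39 log2 against 0.10 log2 over all genes, and 9 and 33 with the block. Over all genes 19.9% were higher, 12.5% lower and 32.4% either, and 55.8% passed in either direction with the block. Without both eWAT K107R vehicle libraries 5 were higher and 16 lower. Of the 7 receptors that lower cAMP 5 were lower in eWAT and 0 higher, among them Adora1, an adenosine receptor (-0.94 ± 0.10 log2, adjusted p = 3.35e-05). Of 7 droplet proteins 5 were lower, with Plin4 at -1.37 ± 0.15 log2 and Cidea at -1.98 ± 0.09 log2, and 2 were higher. Lipa, the acid lipase of lysosomes, averaged 320 FPKM in eWAT and 68.9 in iWAT (2.22 ± 0.20 log2, adjusted p = 9.73e-06), beside macrophage marker sums that were higher in eWAT too, whose part was not tested.

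Genes whose pattern was most like a member's were sought over the 16 libraries on log2(FPKM + 1) centred within each replicate number, among 8835 genes with a mean of at least 5 FPKM. The points share depot, drug and genotype effects, so the correlations are a description. Pnpla2 went most closely with Acacb (r = 0.986), Eci1 (0.984) and its pathway partner Mgll (0.982). Acacb encodes an acetyl-CoA carboxylase and Eci1 an isomerase of fatty acid oxidation. Mgll went with Acsl1, which activates fatty acids (0.993), Tmem120a (0.991) and Cd300lg (0.985), and G0s2 with Plin1, the perilipin that holds ABHD5 (0.982), Dtx2 (0.972) and Nelfcd (0.963). Lipe went with Hrct1 (0.978), Bcl9l (0.978) and Gpihbp1, which anchors lipoprotein lipase in capillaries (0.977), and Abhd5 with Cycs (0.989), Zkscan3 (0.984) and Mgst1 (0.984). Adrb3 had looser companions, Pisd-ps1 (0.937), Tmem229b (0.913) and Id2 (0.906).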

How the data were processed

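The authors deposited 1 table of FPKM values for 14023 genes in 16 libraries, used here as deposited. Per the labels' protocols, a stranded mRNA kit was used on 4 ug of total RNA, and single reads of 75 nt were taken. Per the submitters' processing notes, the build was mm10 and the tools were TopHat2 2.0.12, CASAVA 1.8.2 and Cufflinks 2.2.1; annotation, strand setting and scaling are not given in the sources used here. FPKM sums to between 411746 and 596519 per library without counts; library depth is therefore unknown, and counting intervals were not computed. A gene at exactly 0 is reported as listed at 0.

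A gene was tested if 2 or more libraries had 1 FPKM or more of it (13669 genes). limma 3.58.1 in R 4.3.3 was fitted to log2(FPKM + 1), which makes differences of scarce genes smaller, with 1 mean per group over all 16 libraries, a mean-variance trend, 16 contrasts and two-sided p-values with Benjamini-Hochberg adjustment over all genes tested. The code was tested on simulated data with known changes. Tables and plots were made with Python 3.11.15, pandas 2.3.3, numpy 2.4.6 and matplotlib 3.10.9. Replicate numbers come from the labels. In all 28 pairs of groups, the libraries of a number deviated from their group means together (r over 0.1 in each, 0.121 to 0.791, median 0.573), so the numbers were taken to pair the libraries, and values with the number as a block stand beside those they change.

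Alternatives tried were no filter, a pseudocount of 0.1, libraries rescaled by their median ratio to the geometric mean, the depot's libraries alone, the replicate block, leaving out each library in turn, and the eWAT comparisons without both eWAT K107R vehicle libraries. In the last, genotypes are compared in rosiglitazone mice alone and drug responses in WT mice alone. Depots are then compared without the K107R vehicle group of either depot. Chosen after seeing the data were the block within each depot and leaving out a library with the block. The members and all gene lists were chosen with earlier results of these data known. Members are named in full. Of the wider list, the rule names per comparison up to 4 genes per direction past the test, with the largest difference, no overlap between groups and a mean of at least 2 FPKM in the higher group; Hilpda in eWAT, Adra2a, Cidea and Egr1 in the difference between depots, Adcy5, Adcy6, Plin1 and the genes listed at 0 were named outside it. Coordinates are from GENCODE on GRCm38, the assembly of mm10, and start regions from RefSeq.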

Additional observations from a re-analysis of the deposited data

Results flagged for a closer look

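The response of Hilpda to rosiglitazone passed the test of a difference between depots, eWAT minus iWAT, at 1.26 ± 0.16 log2 (± SE, limma adjusted p = 0.00103). It stayed past the test in each of the 5 other settings (1.19 to 1.32 log2) and in each of 16 omissions of a library (1.16 to 1.36 log2). Without both eWAT K107R vehicle libraries the test, then of WT mice alone in both depots, also passed (1.51 log2, adjusted p = 0.0455). The response of Adra2a in iWAT passed the test of a difference between genotypes, K107R minus WT, at 0.92 ± 0.17 log2 (adjusted p = 0.0322), but only 1 of 8 omissions of a library kept the call (0.75 to 1.08 log2, adjusted p 0.0169 to 0.138). Both genes were looked at because they passed, among 52 listed genes in 3 such tests, in the fit without the replicate block. In that fit 2.21% of all genes passed the difference between depots, 0.966% the iWAT interaction and 2.53% the eWAT interaction. With the block the response of Adra2a passed the difference between depots as well (-0.53 log2, adjusted p = 0.00433, 0.05004 without it). No member passed any of the 3 tests.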

How the results depend on the processing

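No call of a member changed sign under any alternative, and a pseudocount of 0.1 or no filter changed none of the 31 member differences past the test in either fit. Of these, the replicate block kept 11 and added 20, and ended 0. It moved the number of members past the test to 1 in eWAT WT rosiglitazone against vehicle, 3 in eWAT K107R, 2 in iWAT WT, 4 in iWAT K107R and 5 in the iWAT average, and for K107R against WT to 2 in eWAT rosiglitazone, 4 in the eWAT average, 1 in iWAT vehicle and 1 in the iWAT average. With the block within each depot, chosen after seeing the data, these counts were 2, 3, 3 (iWAT WT), 4, 5, 3 (eWAT rosiglitazone), 4, 1 and 2, and 1 in iWAT rosiglitazone. Between depots 6 passed in that fit (Abhd5 gained, adjusted p = 0.0127), but there it compares the level of library 1, not the average of the libraries. Rescaling ended 1 call, that of Mgll in eWAT K107R rosiglitazone (adjusted p = 0.0668), and gained 6, among them Pnpla2 in the same comparison (0.0146), Abhd5 in the iWAT drug average (0.0242) and Adrb3 between depots (0.00629). After it, 1 member passed in iWAT WT rosiglitazone against vehicle, 1 in the eWAT and 1 in the iWAT average of K107R against WT. Rescaling moved the median log2 difference of all genes by over 0.1 in 5 comparisons, to -0.01 where it was 0.17 in eWAT K107R rosiglitazone, to 0.00 where it was 0.10 in the eWAT drug average and between depots, to 0.01 where it was -0.13 in eWAT vehicle K107R against WT, and to -0.02 where it was 0.15 in the eWAT interaction. With the depot's libraries alone, 0 members passed in iWAT K107R rosiglitazone and 0 in the iWAT drug average (Pnpla2 adjusted p = 0.118, Mgll 0.101), a fit with fewer samples. Without both eWAT K107R vehicle libraries, 0 passed in the eWAT drug average and 4 between depots. Leaving out 1 library at a time gave 0 to 1 members in eWAT K107R rosiglitazone, 1 to 2 in the eWAT drug average, 0 to 2 in iWAT K107R rosiglitazone, 2 in the iWAT drug average and 4 to 5 between depots, and 0 in the other comparisons. Omissions that ended the iWAT K107R calls of Pnpla2 and Mgll were those of either rosiglitazone library and of vehicle library 2. Member values that did not pass and turned sign after rescaling were those of G0s2 in the eWAT drug average (-0.03 log2) and in eWAT K107R (-0.02) and of Lipe in the eWAT interaction (-0.04). Depth is unknown, so what it limits cannot be stated.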
